A study of Mus musculus with 24 samples.

Results

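AP-1 is a family of transcription factors that bind DNA as dimers, and the 10 genes described here encode 3 kinds of subunit. They are Jun, Junb and Jund (JUN subunits), Fos, Fosb, Fosl1 and Fosl2 (FOS subunits), and Atf3, Batf and Batf3. They were chosen by name and not by a cut on any measured value, but with earlier results of these data known. They were placed at their mouse mm10 positions, with 50 kb on each side for distal regions. They are 10 of the 21883 RefSeq protein-coding genes on chromosomes 1 to 19, X and Y.

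The data are CUT&RUN peak lists, in which an antibody directs a nuclease to cut out the DNA next to a chromatin protein. All samples came from 1 line of mouse embryonic fibroblasts with a Myh6-eGFP reporter and doxycycline-inducible Mef2c, Gata4 and Tbx5 (MGT), the factors that turn fibroblasts towards cardiomyocytes. MEF2C was mapped at day 1 after MGT induction with 1 µg/mL doxycycline in cells transfected 1 day before induction with siJunb (3 libraries), siH1f0 (3 libraries) or siControl (2 libraries). The linker histone H1.0 and the heterochromatin mark H3K9me3 were each mapped in siControl cells at day 1 (2 libraries) and in ground-state cells, which per the labels were not reprogrammed (2 libraries). MEF2C in these cells includes the protein made from the induced transgene. The 8 IgG samples and any RNA or protein measure of the targets Junb and H1f0 were not analysed here, so the knockdowns were not checked. The samples are labelled as biological replicates, with no word on what was repeated. A p-value therefore reflects only how far these samples spread, and some of that spread may be technical.

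JUN proteins form dimers with each other or with FOS proteins, whereas FOS proteins need a JUN partner. ATF3, BATF and BATF3 pair with JUN proteins through the same kind of leucine zipper. Several of these genes are immediate early genes that fibroblasts switch on within minutes of a serum or stress signal, and AP-1 proteins occupy many fibroblast enhancers. MEF2 proteins bind AT-rich elements, and the Jun promoter is a long-known example of a gene control region with such an element.

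The 8 MEF2C lists held between 11731 and 49011 peaks over 13.4 to 89.8 Mb. The 4 H1.0 lists held 32934 to 722322 peaks, and the 4 H3K9me3 lists held 24219 to 69439. The file names fall into 2 naming series. The first holds siJunb replicate 1, siH1f0 replicate 3 and siControl replicate 1, which are the 3 shortest MEF2C lists. It also holds H1.0 day 1 replicate 2, H1.0 ground state replicate 1 and H3K9me3 replicate 1 of both day 1 and ground state. These H1.0 lists covered 1.05% and 3.41% of the genome, against 33.5% and 40.8% in the second series. For H3K9me3 it was 4.01% and 2.42%, against 13.3% and 11.6%. The part of the naming series in the results was not tested, and counts within each series stand with the processing alternatives. No pair of lists was identical. The lists give no RNA, so the cell type could not be checked from expression. A MEF2C peak lay within 5 kb in all 8 libraries for 4 of 13 fibroblast markers, 2 of 8 cardiomyocyte markers, 1 of 4 endothelial markers and 1 of 4 blood and immune markers. Over all protein-coding genes it was 16.1%. These counts describe where peaks lay and do not check a cell type.

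MEF2C lay at 6 of the 10 AP-1 genes in every library. No AP-1 gene was held by every library of one group and by none of another. Each such difference was found for only 0.183% to 1.15% of all protein-coding genes, so 0 of 10 says little about these genes. Jun, Junb, Fos, Fosb, Fosl2 and Atf3 had a MEF2C peak within 5 kb of the gene in 3 of 3 siJunb, 3 of 3 siH1f0 and 2 of 2 siControl libraries. Over all protein-coding genes 16.1% had a peak in all 8 libraries. The position of the strongest peak differed from gene to gene. Across libraries it kept to the same part of the gene or its flank for each of these 6. Where peaks tied in siJunb replicate 1, the peak at the 3′ end was counted for Junb and the one inside the gene for Fosb. At Jun and Atf3 the strongest peak lay on the start site, next to a match to the MEF2 consensus in both promoters. At Fos it lay upstream, at Fosb inside the gene, and at Junb and Fosl2 at or beyond the 3′ end.

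The promoter sequences of Jun and Atf3 are shown because MEF2C had its highest coverage there and because they were the only members of the promoter table with a match to the MEF2 consensus. The sequences are the 250 bases before the annotated start in RefSeq, build GRCm38.p6, read 5′ to 3′ on the minus strand, at chr4:95052223-95052472 for Jun and chr1:191183334-191183583 for Atf3. Capitals mark the MEF2 consensus matches in both and, in Jun, a Jun-type AP-1 site just before it.
Jun: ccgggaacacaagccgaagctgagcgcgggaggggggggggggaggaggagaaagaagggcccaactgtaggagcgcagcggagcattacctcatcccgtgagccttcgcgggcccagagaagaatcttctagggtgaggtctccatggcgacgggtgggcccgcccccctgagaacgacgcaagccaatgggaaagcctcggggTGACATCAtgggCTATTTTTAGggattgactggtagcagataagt
Atf3: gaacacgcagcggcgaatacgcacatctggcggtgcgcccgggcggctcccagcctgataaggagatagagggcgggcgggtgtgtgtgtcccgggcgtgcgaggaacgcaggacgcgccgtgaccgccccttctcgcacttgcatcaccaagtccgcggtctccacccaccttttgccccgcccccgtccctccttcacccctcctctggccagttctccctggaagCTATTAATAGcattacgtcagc
In Jun the MEF2 match CTATTTTTAG began 33 bases before the start site, and the Jun-type AP-1 site TGACATCA began 45 bases before it. In Atf3 the match CTATTAATAG began 22 bases before the start site.

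The 6 motifs were searched for on both strands in a 300-base window (250 bases before and 50 after the start) of 9 members in the promoter table, all but Fosl1, and of 32851 promoters in all. The MEF2 consensus was found in 2 members, Jun and Atf3, and in 3.19% of all promoters. The Jun-type AP-1 site TGACATCA was found in Jun alone among the 9, and in 3.62% of promoters. The AP-1 site TGANTCA, the cyclic AMP element TGACGTCA and the CArG box, the element bound by serum response factor, were in 0 of the 9, against 7.81%, 1.79% and 1.63% of promoters. The GC box GGGCGG was in 7 of the 9 and in 35.7% of promoters. In Jun and Atf3 no match overlapped that of a different motif, and 2 GC box matches in Atf3 overlapped each other. A match describes letters in the window and is not a measured site, and no match says only that these letters are not in the window.

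The MEF2 match was more frequent where MEF2C covered the start site in every library. It was in 8.40% of the 619 promoters with the start under a MEF2C peak in all 8 lists, in 1.94% of the 10120 with it in 1 to 7 lists, and in 3.61% of the 22112 with it in none. Jun, Atf3 and Fos belonged to the first group, and Fos had no match. These shares are across promoters, which are not replicates.

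Jun, the gene of the founding JUN subunit, is at chromosome 4, 95049036 to 95052222, on the minus strand. It had 1 MEF2C peak within 5 kb in each of the 8 libraries, and every one of them covered the start site. The peak's maximum coverage, the fifth column of the deposited lists, was 15, 37 and 24 in siJunb replicates 1, 2 and 3. It was 56, 85 and 29 in siH1f0 replicates 1, 2 and 3, and 25 and 87 in siControl replicates 1 and 2. These scores are the authors' and show no scaling to depth, so each is read only within its own list. Its percentile is the rank of its maximum, counted from the lowest, as a share of the number of peaks in that list. Peaks with the same maximum were given the mean of their ranks. On that scale the Jun peak stood at 93.5%, 99.5% and 96.1% in siJunb, 95.8%, 97.7% and 98.0% in siH1f0, and 94.5% and 95.2% in siControl. It was thus among the strongest peaks of each list, in every group. Its width ran from 1187 to 5142 bp.

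The stretch of highest MEF2C coverage at Jun had its midpoint between -151 and 22.5 bp of the start site in the 8 lists. From the MEF2 match printed above, that midpoint was 51, 51.5 and 53.5 bp away in siJunb, 122, 58.5 and 75.5 bp in siH1f0, and 32.5 and 51.5 bp in siControl. The match itself lay under the peak in 8 of 8 libraries. The 865 bp that all 8 lists covered ran from 95051717 to 95052581, across the start site. Within 50 kb of Jun no other protein-coding gene is annotated, and no other MEF2C region was shared by all 8 libraries.

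Junb encodes a JUN subunit that often tempers JUN activity, and it is the gene targeted in the siJunb cells. It is at chromosome 8, 84976909 to 84978748, on the minus strand, so its 3′ end is the lower coordinate. All 8 libraries had a MEF2C peak at that 3′ end, with its highest coverage 1833 to 1944 bp downstream of the start site of this 1840 bp gene. The 664 bp common to the 8 lists ran from 84976329 to 84976992. The start site was under a peak in 5 of 8 libraries. It was covered in siJunb replicates 2 and 3, siH1f0 replicates 1 and 2, and siControl replicate 2, all of the second naming series, with peaks of 5131 to 8655 bp that spanned the whole gene.

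The strongest Junb peak stood at the 55.2, 98.4 and 88.7 percentile in siJunb replicates 1, 2 and 3. In siH1f0 replicates 1, 2 and 3 it stood at the 94.6, 97.7 and 64.0 percentile, and in siControl replicates 1 and 2 at the 84.5 and 96.1 percentile. The groups overlapped, and the lowest value in each came from the first naming series. In siJunb replicate 1 a second peak of the same maximum, 7, lay upstream, with its midpoint at -1303 bp.

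Jund, the most steadily expressed JUN subunit, is at chromosome 8, 70697739 to 70700616, on the plus strand. A MEF2C peak within 5 kb was listed in 2 of 3 siJunb, 3 of 3 siH1f0 and 1 of 2 siControl libraries. The libraries without one were siJunb replicate 1 and siControl replicate 1, both of the first naming series. Where a peak was listed, its percentile was 86.6 and 91.6 in siJunb replicates 2 and 3, and 76.8, 76.2 and 29.5 in siH1f0 replicates 1, 2 and 3. It was 77.7 in siControl replicate 2. More constant were a pair of upstream regions in all 8 libraries, at -22.4 kb in Lsm4 and at -13.6 kb between Lsm4 and Jund, the second with percentiles from 84.9 to 97.7.

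Fos, the immediate early gene that gives the FOS subunits their name, is at chromosome 12, 85473890 to 85477274, on the plus strand. Its strongest MEF2C peak had its highest coverage upstream of the start site in every library, from -1747 to -1403 bp. The midpoint was at -1747 to -1724 bp in the libraries of the first naming series and at -1498 to -1403 bp in those of the second. The maximum coverage of the peak was 17, 27 and 39 in siJunb replicates 1, 2 and 3, with percentiles of 95.6, 98.7 and 99.0. It was 92, 91 and 24 in siH1f0 replicates 1, 2 and 3, with percentiles of 98.9, 98.1 and 96.6. In siControl replicates 1 and 2 it was 32 and 113, with percentiles of 97.0 and 97.3. The peak was thus near the top of all 8 lists, and the groups overlapped.

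The start site of Fos was also under a MEF2C peak in 8 of 8 libraries. In siJunb replicates 1 and 2, siH1f0 replicate 3 and siControl replicate 1 this was a second, weaker peak, at the 74.4, 82.4, 84.3 and 76.2 percentile. In the other 4 libraries 1 peak of 3804 to 6582 bp covered both places. The bases common to all 8 lists formed 2 blocks, 85471767 to 85472667 upstream and 85473830 to 85474359 over the start.

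Fos stood in a stretch with no other protein-coding gene within 50 kb, and 4 MEF2C regions there were in all 8 libraries. Beside the region at the gene they began -32.8, -22.8 and -13.8 kb from the start site. The farthest, at 85433934 to 85441047, was the strongest of the 4 regions within each list. Its percentile was 98.9, 99.7 and 99.6 in siJunb, 99.5, 99.2 and 99.4 in siH1f0, and 97.8 and 98.9 in siControl. That exceeded the percentile of the peak at the gene itself in each of the 8 lists.

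Fosb, a FOS subunit induced later than Fos, is at chromosome 7, 19302696 to 19310118, on the minus strand. Its strongest peak, tied with another in siJunb replicate 1, lay inside the gene in all 8 libraries. Its highest coverage was 1412 to 1576 bp downstream of the start site. The percentile was 66.1, 95.5 and 86.9 in siJunb replicates 1, 2 and 3, and 79.8, 92.5 and 80.9 in siH1f0 replicates 1, 2 and 3. It was 66.7 and 82.5 in siControl replicates 1 and 2. The groups overlapped, and the start site was covered in 5 of 8 libraries. In siJunb replicate 1 the peak over the start site, with its midpoint at -122 bp, had the same maximum, 8, as the peak inside the gene. Upstream, 3 regions were in all 8 libraries, at -19.3 kb, at -30.9 kb in Ercc1, and at -49.1 kb over Cd3eap and Ppp1r13l.

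Fosl2, which encodes the FOS-related subunit FRA2, is at chromosome 5, 32136472 to 32157840, on the plus strand. Its strongest MEF2C peak was not at the start but past the 3′ end, and of these 6 genes it varied least in position. The midpoint of its highest coverage was 24305, 24316 and 24294 bp from the start site in siJunb, 24284 bp in all 3 siH1f0 libraries, and 24305 and 24291 bp in siControl. The 1579 bp that all 8 lists covered there, 32159813 to 32161391, began 1973 bp beyond the annotated end of Fosl2.

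That Fosl2 peak had a maximum coverage of 19, 44 and 39 in siJunb replicates 1, 2 and 3, with percentiles of 96.8, 99.7 and 99.0. In siH1f0 replicates 1, 2 and 3 the maximum was 88, 128 and 23, with percentiles of 98.8, 99.3 and 96.2. In siControl replicates 1 and 2 it was 42 and 187, with percentiles of 98.6 and 99.2. It ranked from 154 of 49011 peaks in siJunb replicate 2 to 686 of 17871 in siH1f0 replicate 3.

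Fosl2 also had the most shared regions, 5 in all 8 libraries within 50 kb, with no other protein-coding gene inside that window. One, as joined over the 8 lists, spanned 19393 bp around the start, from 32128031 to 32147423. In it all 8 lists shared only blocks of 1054, 78, 58 and 383 bp. The others began -49.7, -36.4, 17.0 and 49.7 kb from the start site, and the first of these reached out of the window over Babam2. The start site itself was under a peak in 6 of 8 libraries. Fosl1, which encodes FRA1, is at chromosome 19, 5447698 to 5455938, and had little by comparison. A peak within 5 kb was listed in 1 of 3 siJunb, 2 of 3 siH1f0 and 1 of 2 siControl libraries. Its percentile was 28.1 in siJunb replicate 2, 19.7 and 18.2 in siH1f0 replicates 1 and 2, and 0.0648 in siControl replicate 2. The Fosl1 peaks were thus among the weaker ones of their lists, and the 1 region in all 8 libraries in its window lay over Mus81 and Cfl1.

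Atf3, a stress-induced gene whose protein represses or activates depending on its partner, is at chromosome 1, 191170296 to 191183333, on the minus strand. Every library had a MEF2C peak over its start site, with the midpoint of the highest coverage from -140 to -90 bp. The maximum coverage was 10, 33 and 27 in siJunb replicates 1, 2 and 3, with percentiles of 80.6, 99.2 and 97.1. In siH1f0 replicates 1, 2 and 3 it was 57, 76 and 23, with percentiles of 96.0, 97.0 and 96.2. In siControl replicates 1 and 2 it was 23 and 62, with percentiles of 93.2 and 90.8. The lowest percentile came from siJunb replicate 1, the shortest list, and the other 7 were above 90.

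From the MEF2 match in the Atf3 promoter, the midpoint was 72.5, 79 and 93 bp away in siJunb, 76.5, 122 and 110 bp in siH1f0, and 76 and 112 bp in siControl. In all 8 libraries it lay on the upstream side of the match. Upstream, 2 more regions were in all 8 libraries, beginning 31650 and 38325 bp from the gene. The farther one, 191221658 to 191235462, stood at the 98.4, 98.9 and 98.6 percentile in siJunb, at 98.8, 99.3 and 98.0 in siH1f0, and at 95.0 and 98.6 in siControl.

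Batf and Batf3, whose proteins lack a transactivation domain and are best known from lymphocytes and dendritic cells, had few MEF2C peaks. Batf, at chromosome 12, 85686720 to 85709087, had a peak within 5 kb in 2 of 3 siJunb, 1 of 3 siH1f0 and 1 of 2 siControl libraries, with percentiles of 7.29 to 45.8. Batf3, at chromosome 1, 191098414 to 191108943, had one in siJunb replicate 2 (percentile 65.2), in siH1f0 replicate 2 (24.4) and in 0 of 2 siControl libraries. Neither had a region in all 8 libraries within 50 kb. Their neighbours did: Fos lies 209 kb from Batf, and Atf3 lies 61.4 kb from Batf3, so that the windows of Batf3 and Atf3 share 38.6 kb.

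**Figure D1:**
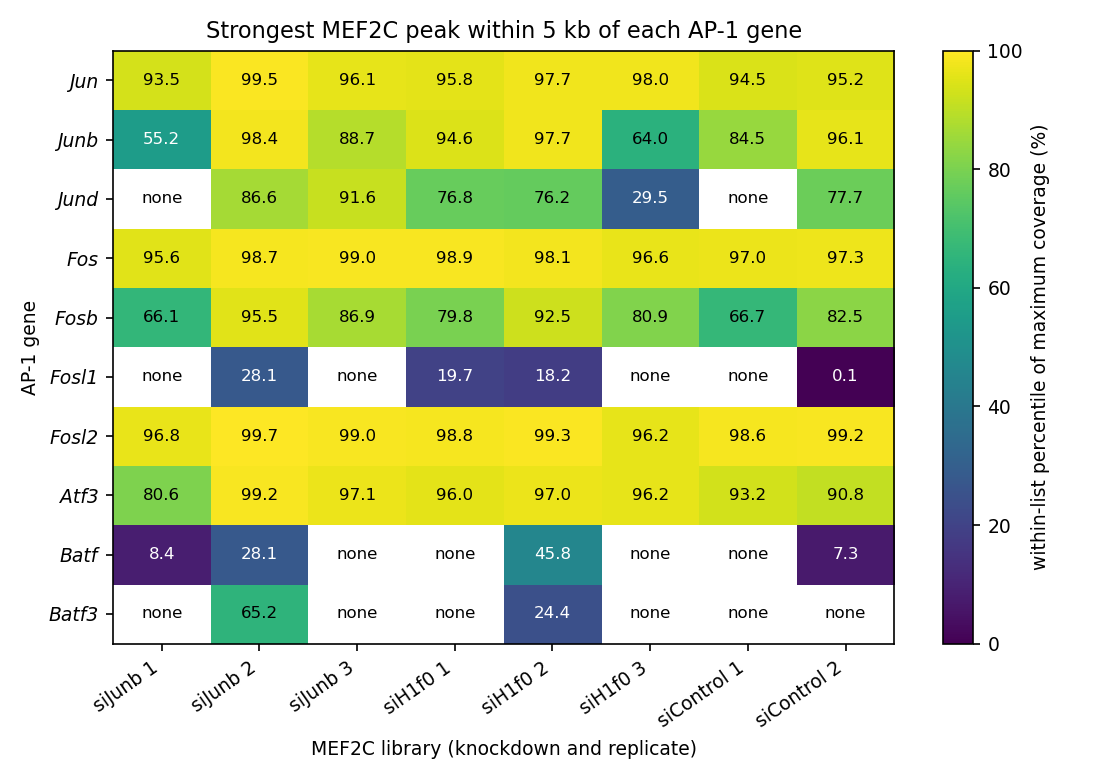
Within-list percentile (colour and number, %) of the strongest MEF2C peak within 5 kb of each AP-1 gene (rows) in each of the 8 libraries (columns, siJunb, siH1f0, then siControl), with "none" where no peak was listed. Jun, Fos and Fosl2 were above 93 in every library, and Fosl1 and Batf were below 50 wherever they had a peak.

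**Figure D2:**
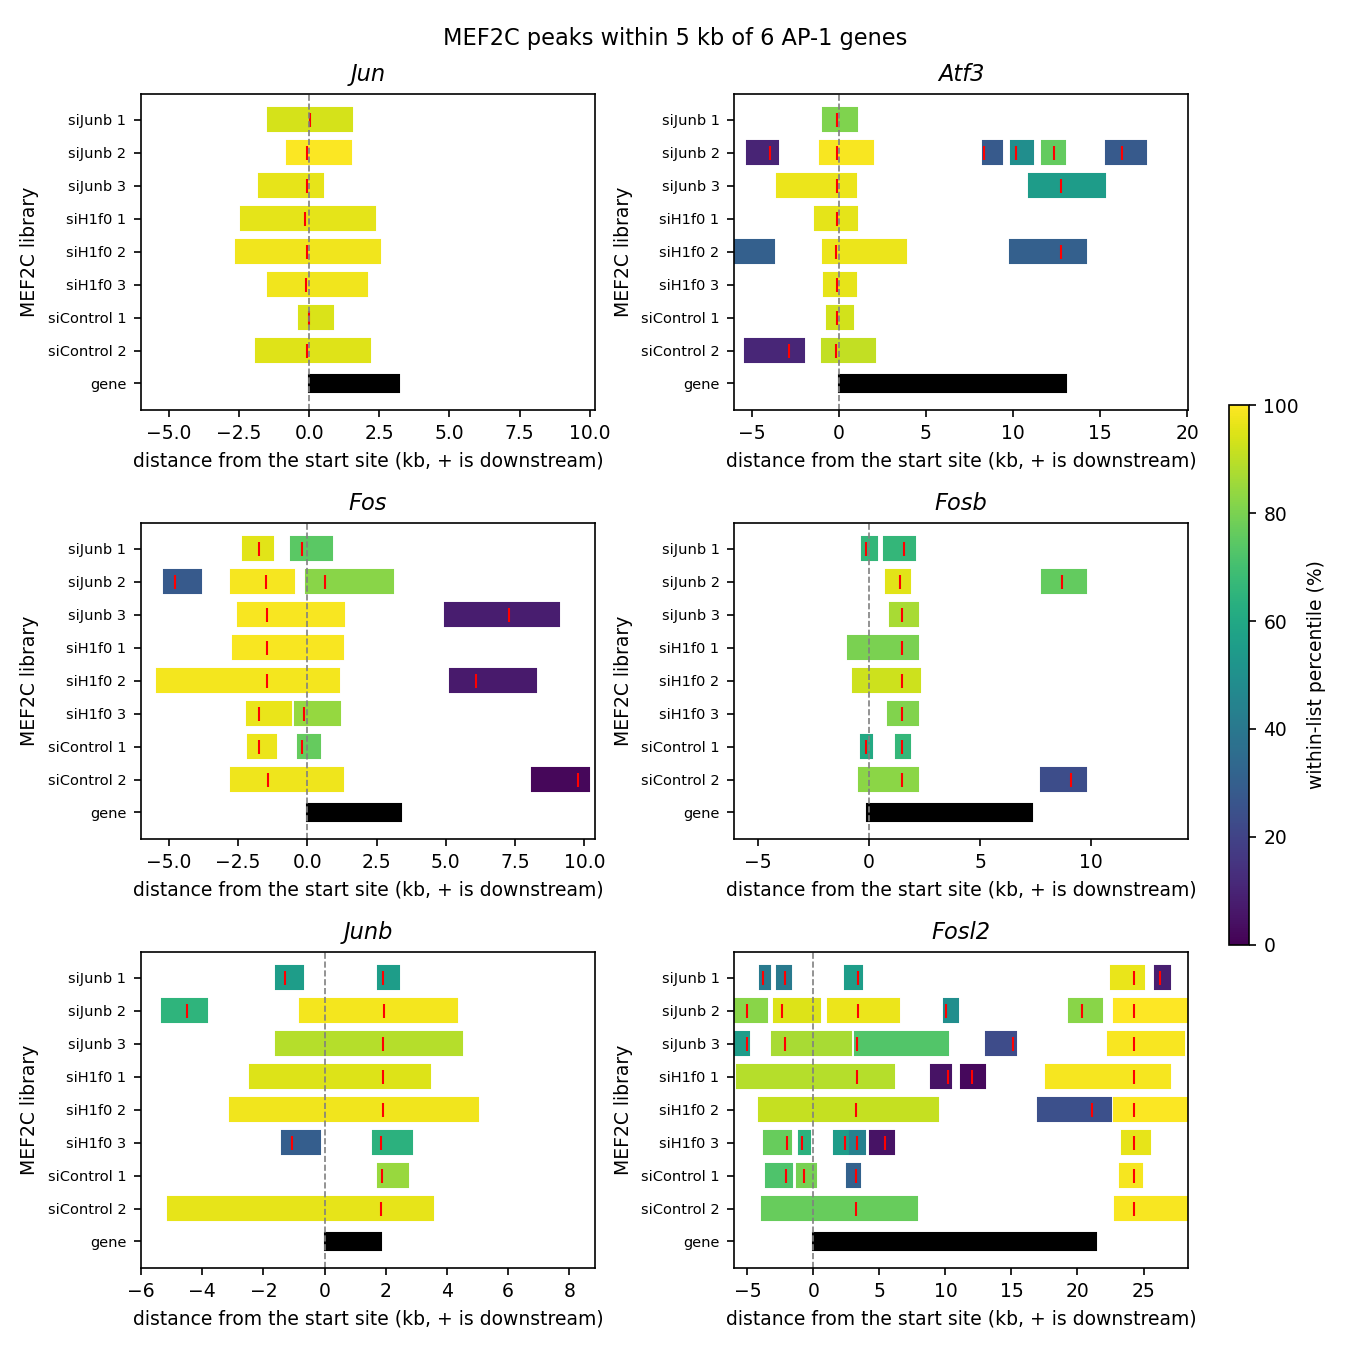
MEF2C peaks (bars, coloured by within-list percentile) and the midpoint of their highest coverage (red ticks) against the distance from the start site in kb for 6 AP-1 genes, with 1 line per library and the annotated gene in black. The red ticks of the strongest peaks line up across libraries, at the start of Jun and Atf3, upstream of Fos, inside Fosb, at the 3′ end of Junb and beyond the 3′ end of Fosl2. The exceptions are in siJunb replicate 1, where the 3′ peak of Junb ties in maximum with an upstream peak. There the inner peak of Fosb likewise ties with a peak over the start site. At Fos the ticks of the first naming series lie farther upstream than those of the second. Peaks that reach past a panel are clipped.

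Counted by group, 6 members had a peak within 5 kb in every siJunb library, where 21.6% of protein-coding genes did. The count was 7 in every siH1f0 library (30.0% of genes), Jund being the added gene, and 6 in every siControl library (28.4%). No member lacked a peak in all 8 libraries, whereas 31.6% of genes did. The start site was under a MEF2C peak in all 8 libraries for 3 members, Jun, Fos and Atf3, against 2.69% of the 17491 genes with a start in the promoter table. Within 50 kb, 8 members had a peak in all 8 libraries, against 37.2% of genes. The members' strongest peaks also stood higher than usual within the lists: their median percentile was 80.6 to 96.9 over the 8 libraries, against 55.2 to 75.9 for all protein-coding genes with a peak. The 10 members were listed by function, with earlier results of these data known. These shares over genes are given as a background without a test.

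The siJunb comparison asks where MEF2C differed when Junb was targeted, and the siH1f0 comparison asks the same for the H1.0 gene; both use the same 2 siControl libraries. Of the 10 members, 0 had a peak within 5 kb in every siControl and no siJunb library (1.15% of genes did), and 0 in every siJunb and no siControl library (0.704%). For siH1f0 the counts were likewise 0 lost (0.183%) and 0 gained (0.621%), and without siControl replicate 2 the gained count was 1, Jund. Between the knockdowns, 0 members were held by every siH1f0 and no siJunb library (0.973%) and 0 by every siJunb and no siH1f0 library (0.352%).

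When overlapping peaks of the 8 MEF2C lists were joined, 77240 regions resulted, 108 of them within the members' windows. Of these 108, 21 were in all 8 libraries (19.4%, against 5.58% of all regions) and 42 were in 1 library (38.9%, against 56.4%). Only the window of Junb held a region that separated siJunb from siControl. A region at chromosome 8, 84959405 to 84962662, over Rnaseh2a and 16.1 kb beyond the start site of Junb on its 3′ side, was in 0 of 3 siJunb, 3 of 3 siH1f0 and 2 of 2 siControl libraries. This pattern of loss under siJunb was found for 1.98% of all regions, and presence in every siH1f0 but no siJunb library for 1.41%. The reverse, every siJunb but no siH1f0 library, was found for 0 regions in the members' windows (0.132% of all). Its percentile was 46.8, 68.8 and 15.4 in siH1f0 replicates 1, 2 and 3 and 42.4 and 69.3 in siControl, so it was a middling or weak peak.

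The neighbouring region, 84964679 to 84971130 over Rnaseh2a and Prdx2, showed the opposite pattern. It was in 3 of 3 siJunb, 2 of 3 siH1f0 and 0 of 2 siControl libraries, a gain found for 0.256% of all regions. Its percentile was 1.17, 82.4 and 54.9 in siJunb replicates 1, 2 and 3 and 41.9 and 41.0 in siH1f0 replicates 1 and 2, and the gain rests on a peak of maximum 3 in siJunb replicate 1. It was not called when a library had to cover 25% of the region, and neither region was called in the upper 50% of each list. In the windows of the 10 members siH1f0 had 0 lost regions (0.249% of all regions) and 0 gained regions (0.448%).

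Single libraries set these region counts, and no share over all regions was computed with a library left out. The gain under siJunb was 10 regions without siJunb replicate 1 and 2 without siJunb replicate 3 or siControl replicate 2. The loss under siJunb was 5 regions without siControl replicate 1 and 2 without siJunb replicate 3. Under siH1f0 the gain was 5 when siH1f0 replicate 3 was left out, and 1 when siH1f0 replicate 1 was. It was 4 when siControl replicate 2 was left out. The loss under siH1f0 was 1 when siH1f0 replicate 2 was left out and 3 when siControl replicate 1 was.

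The amount of sequence under MEF2C peaks in the window varied widely between libraries of the same group at Fosl2 and Fos. At Fosl2, which had the most of the 10 genes in every library but siControl replicate 1, it was 10.5, 54.5 and 51.1 kb in siJunb replicates 1, 2 and 3, 33.8, 63.0 and 15.4 kb in siH1f0, and 7.74 and 32.6 kb in siControl. The smallest value in each group belonged to the first naming series. At Fos it was 6.66, 30.1 and 38.7 kb in siJunb, 26.0, 32.8 and 10.6 kb in siH1f0, and 8.22 and 19.3 kb in siControl, again with overlap between all groups. Both genes ranked at or above the 97.7 percentile of all protein-coding genes in every library. At Jun the smallest siJunb value, 2.31 kb, and the smallest siH1f0 value, 4.77 kb, came from the second naming series instead.

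Jun was the 1 member with a comparison in which the groups did not overlap, that of siJunb with siH1f0. The bases under MEF2C peaks around Jun came to 3.02, 2.31 and 4.63 kb in siJunb (3.32 ± 1.19 kb, SD, n = 3) and 4.77, 6.88 and 5.23 kb in siH1f0 (5.63 ± 1.11 kb, n = 3). In siControl they came to 1.98 and 4.90 kb. The siJunb minus siH1f0 difference was -2.31 kb, with an exact permutation p of 0.1, the least that 3 against 3 libraries can give, and an adjusted p of 1 over 18189 genes. Such a lack of overlap in this direction was found for 3.39% of those genes, and it was gone at Jun when the bases were scaled to the total under peaks in each list. For the other 9 members, and for all 10 against siControl, the groups overlapped and two-sided exact permutation p ran from 0.2 to 1. Against siControl the smallest possible p is 0.1, so no call could be made. Higher covered length in every siJunb than in any siControl library was found for 1.92% of genes and lower for 3.17%, and for siH1f0 2.59% and 0.581%. With a library left out, no share over all genes was computed. Without siJunb replicate 1, or without siControl replicate 2, 5 members were higher in siJunb than in siControl. Without siControl replicate 1, 1 member was lower. For siH1f0 against siControl 5 members were higher when siH1f0 replicate 3 was left out and 1 when siH1f0 replicate 1 was. With siControl replicate 2 left out, 6 were. Between the knockdowns 2 members were lower in siJunb without siH1f0 replicate 3, and 1 was higher without siJunb replicate 1.

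**Figure D3:**
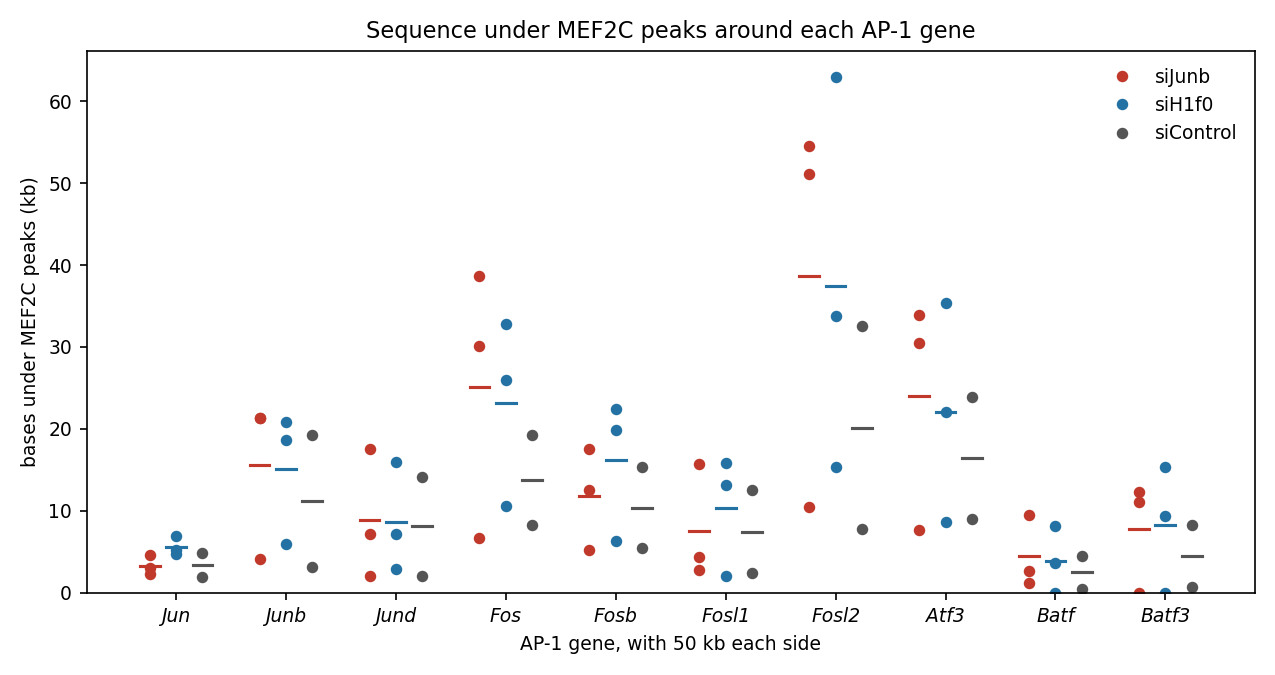
Sequence under MEF2C peaks (kb, y axis) in each AP-1 gene with 50 kb on each side, with 1 point per library, coloured by knockdown (siJunb, siH1f0, siControl from left to right), and a bar for the group mean. Points of the 3 groups overlap for every gene except between siJunb and siH1f0 at Jun, and the spread within a group is widest at Fosl2.

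H1.0, the linker histone encoded by H1f0, binds at the entry of DNA into the nucleosome and is common in resting and differentiated cells. Its 4 lists were of very unequal length, covering 33.5% and 1.05% of the genome at day 1 and 3.41% and 40.8% in the ground state. A peak within 5 kb in all 4 lists was found for 2 members, Fosl2 and Atf3, against 34.5% of protein-coding genes, and within 50 kb for 7 members, against 70.1%. No member lacked a peak in all 4 lists, within 5 kb (2.38% of genes did) or within 50 kb (1.32%). Fosl2 had the largest share of its window under H1.0 peaks in each list, 75.3% and 7.31% at day 1 and 17.9% and 62.2% in the ground state. Fosb had the smallest, or shared it, with 11.8% and 0% at day 1 and 0% and 1.60% in the ground state. The median share over the members was 36.6% and 1.49% at day 1 and 4.95% and 37.7% in the ground state, where all genes had 41.4%, 0.935%, 3.56% and 38.4% in the same order.

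Day 1 and ground state overlapped at all 10 members for H1.0, with two-sided exact permutation p from 0.667 to 1 where 0.33 is the lower limit, and shares lower at day 1 without overlap were found for 0.0417% of genes and higher for 0.0463%. The share was lower at day 1 for 7 members without day 1 replicate 1 and for 3 without ground state replicate 1. It was higher at day 1 for 7 members without day 1 replicate 2 and for 2 without ground state replicate 2. These counts were not made over all genes. At the bases that all 8 MEF2C lists covered, Atf3 was under H1.0 for 57.1% and 0% of 1488 bp in day 1 replicates 1 and 2 and for 60.4% and 54.2% in ground state replicates 1 and 2. Jun was under H1.0 for 24.5% of 865 bp in day 1 replicate 1 and for 0% in the other 3 lists. The block at the start of Fos was at 100% in day 1 replicate 1 and in ground state replicate 2, and at 0% in the other 2. The common blocks of Junb and Fosb were at 0% in all 4 lists. The block beyond Fosl2 was at 100% in the same 2 lists as the Fos start, which cover the most of the genome, and at 0% in the other 2. Over all 4491 such blocks, H1.0 covered 75.8% and 6.14% of the bases at day 1 and 10.2% and 78.8% in the ground state.

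H3K9me3, the mark of constitutive heterochromatin, was listed within 5 kb of 2 of these genes, Atf3 and Batf. No peak within 5 kb was listed in any of the 4 lists for 8 members, against 59.7% of all protein-coding genes. Batf had one in replicate 2 of both day 1 and ground state. Atf3 was the 1 member with a peak within 5 kb in all 4 lists, against 16.1% of genes.

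At Atf3 the H3K9me3 peak lay directly upstream of the gene and reached the start site. It ran from 191183092 to 191187142 and from 191183212 to 191188623 in day 1 replicates 1 and 2. In ground state replicates 1 and 2 it ran from 191183343 to 191187491 and from 191183203 to 191188268. Its percentile within the H3K9me3 lists was 95.1 and 94.1 at day 1 and 97.7 and 98.7 in the ground state, so it was a strong peak in each. It covered the annotated start site in 3 of the 4 lists and ended 10 bp before it in ground state replicate 1.

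The Atf3 promoter was thus in both kinds of list. The MEF2 match printed above lay under a MEF2C peak in 8 of 8 lists and under an H3K9me3 peak in 4 of 4. Of the 1488 bp that all 8 MEF2C lists shared there, H3K9me3 covered 62.0% and 54.0% at day 1 and 45.2% and 54.6% in the ground state. Among 4491 such shared blocks genome-wide, 28 (0.623%) were touched by H3K9me3 in all 4 lists. Of the 470 genes with the start under MEF2C in all 8 lists, Atf3 was the 1 gene (0.213%) whose start was under H3K9me3 in at least 3 of 4 lists, where 1.90% of 17491 genes had such a start. MEF2C and H3K9me3 came from separate libraries, so the lists do not show whether they lay on the same DNA molecules, and this pattern was singled out after its values were seen. H3K9me3 also lay within 50 kb in all 4 lists of Fos, Batf and Batf3, which with Atf3 made 4 members against 44.6% of genes, and in 0 of 4 lists of Junb and Fosb (21.1%). By the share of the gene and 50 kb on each side under H3K9me3, Batf3 stood at the 86.3 and 82.4 percentile of all protein-coding genes at day 1 and at 88.6 and 80.7 in the ground state. Fos stood at 84.5 and 73.3 at day 1 and at 87.7 and 72.7 in the ground state.

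**Figure D4:**
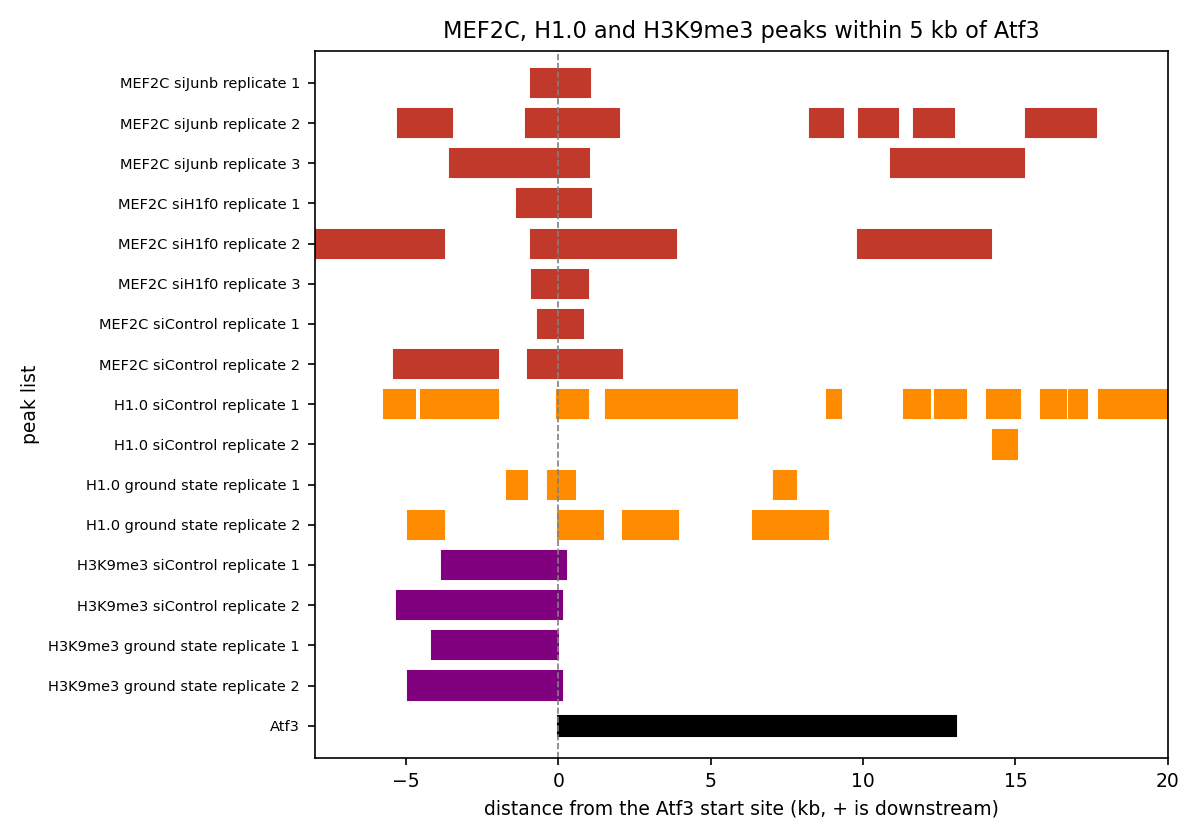
Peaks within 5 kb of Atf3 in the 8 MEF2C lists (red), 4 H1.0 lists (orange) and 4 H3K9me3 lists (purple) against the distance from the Atf3 start site in kb, with the gene in black and siControl meaning day 1. The MEF2C peaks sit across the start site in all 8 lists, and the H3K9me3 peaks reach to it from upstream in all 4; peaks that reach past the panel are clipped.

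The H3K9me3 share of the Atf3 window was 12.3% and 23.3% at day 1 (17.8% ± 7.79, SD, n = 2) and 10.7% and 19.6% in the ground state (15.1% ± 6.30, n = 2). The 2 groups overlapped, and the two-sided exact permutation p was 0.667. Jun was the 1 member whose groups did not overlap. It had 0% in both day 1 lists and 1.60% and 3.06% in the ground state, lower at day 1, with an exact permutation p of 0.33, which 2 against 2 lists cannot go below. This lack of overlap was found for 0.897% of genes, and the opposite one, for 2.21%, was found for 0 members. At Jun it was gone within 5 kb and with the upper 50% of each list. Without ground state replicate 1, 4 members were lower at day 1, and 4 were higher without day 1 replicate 1 or without ground state replicate 2. These counts were not made over all genes.

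**Figure D5:**
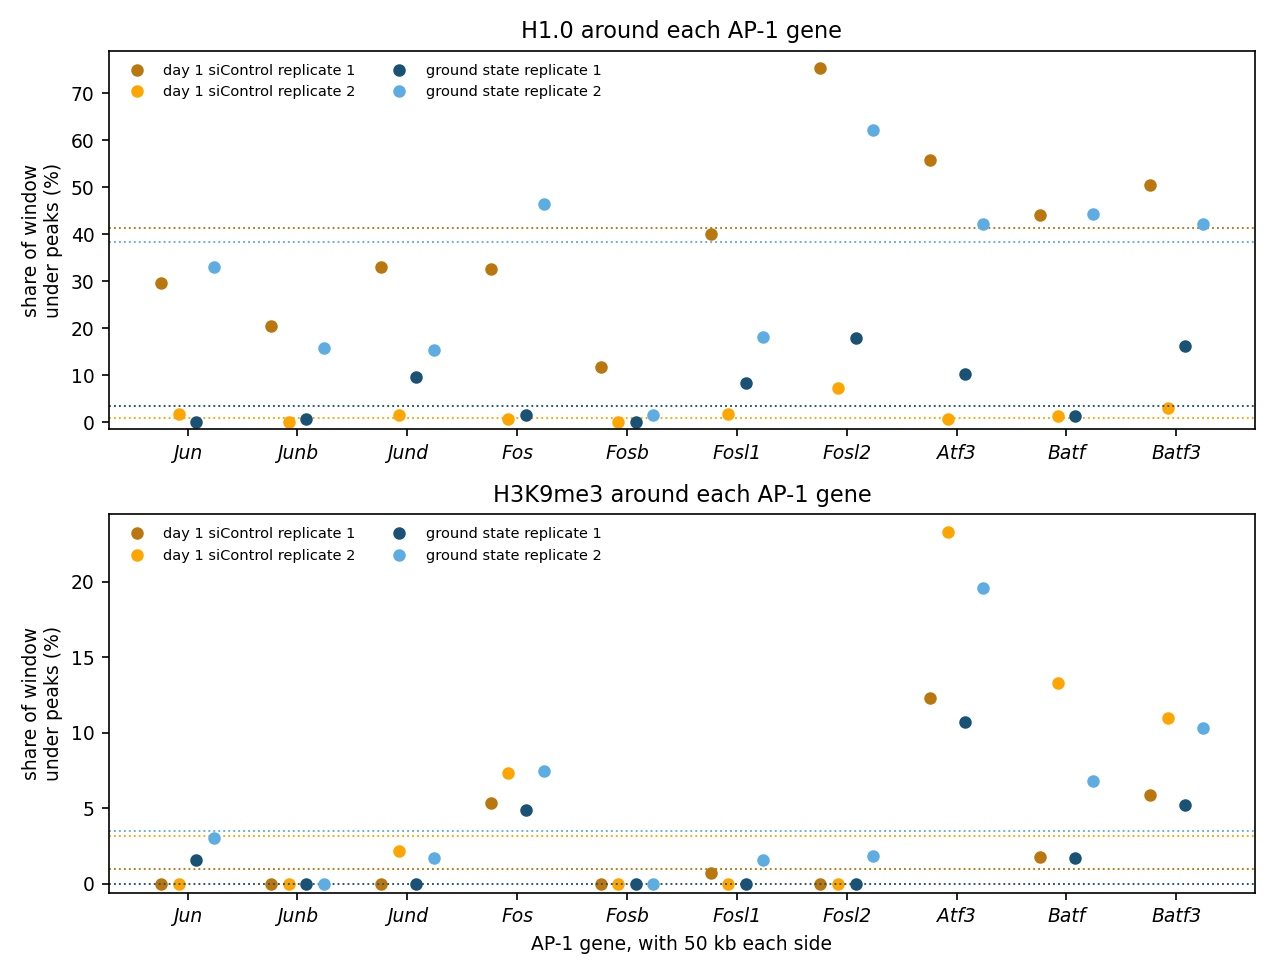
Share of each AP-1 gene with 50 kb on each side (%, y axis) under H1.0 peaks (top) and H3K9me3 peaks (bottom), with 1 point per list, day 1 left of ground state, and a dotted line in the same colour for the median of all protein-coding genes in that list. At every gene the H1.0 points are higher in day 1 replicate 1 and ground state replicate 2, which cover the most of the genome. The H3K9me3 points are highest at Atf3 in all 4 lists.

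Genes around AP-1 were counted in the same way, from lists chosen with earlier results of these data known. A MEF2C peak within 5 kb in all 8 libraries was found for 13 of 17 other immediate early genes, among them Ccn1 and Ccn2 (matricellular proteins), Btg2, Klf6, Nr4a1, Klf2, Ier2 and Egr2. It was found for 10 of 20 kinases and phosphatases upstream of AP-1, including the kinase genes Map2k1 and Map3k1, and Dusp6 and Dusp10, which remove phosphate from MAP kinases. For AP-1 partner and related leucine zipper genes the count was 11 of 24, including Atf1, Bach2, Crem, Ddit3, Mafk and Nfe2l2. For known AP-1 targets it was 4 of 20, among them Mmp13, Cd44 and Areg. Over all protein-coding genes it was 16.1%, and for the AP-1 members 6 of 10.

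In these lists the genes that separated groups were few. Klf4, a zinc finger factor, and Lif, a cytokine gene, had a peak in every siH1f0 and no siJunb library, as had 0.973% of all protein-coding genes. The fibroblast genes Col3a1 and Twist1 had one in every siControl and no siJunb library, as had 1.15%. Of the 110 genes in the other lists, 46 shared the pattern of Jun, Junb, Fos, Fosb, Fosl2 and Atf3, a peak in all 8 libraries (41.8%, against 16.1% of protein-coding genes). The pattern of Jund was shared by 2 of the 110 (1.82%, against 2.30% of protein-coding genes) and that of Fosl1 by 1 (0.909%, against 1.56%). Those of Batf and Batf3 were shared by 0, against 0.114% and 0.873% of protein-coding genes.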

How the data were processed

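Per the submitters' processing notes, the build was mm10 and the tools included Bowtie2, an aligner, and SEACR, a peak caller for sparse background; no version of either is given. The deposited lists give signal, whole-number coverage summed over each peak (column 4) and its maximum (column 5), with no scaling to depth seen. Each of the 16 lists came from 1 sample. The number of aligned reads is unknown, so precision rests on list length and the spread between libraries.

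Chromosomes 1 to 19, X and Y were kept, and artefact-prone regions were not filtered out. Gene positions, strands, starts and promoters came from RefSeq tables of GRCm38.p6, the assembly of mm10, in 1-based coordinates. A gene held a peak when 1 bp of it lay in the gene or within 5 kb of either end. Peaks that overlapped or touched across the 8 MEF2C lists were merged into regions. Covered lengths were compared with two-sided exact permutation tests over libraries, with Benjamini-Hochberg adjustment over all genes with a covered base. Functions were tested on simulated peaks. The tools were Python 3.11.15, numpy 2.4.6, pandas 2.3.3 and matplotlib 3.10.9.

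The members and lists were chosen with earlier results of these data known. Named were the 10 members. Genes of other lists were named when held by all libraries of one group and none of another, or by all 8 (at most 8 names per list, by strength in siControl). Regions were named when held by all 8 or lost or gained. Replicate numbers were taken from the labels and not treated as pairs. Alternatives were other windows, stricter or equal lists, other overlaps, each library left out, naming series and a replicate block.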

Additional observations from a re-analysis of the deposited data

How the results depend on the processing

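Of 133 values recomputed under another setting, 107 stayed within 1.5 times the reported count and 26 moved. Jun, Junb, Fos, Fosb, Fosl2 and Atf3 kept a MEF2C peak in 8 of 8 libraries with a 1 kb window, the upper 50% of each list, lists of equal length (11731 peaks) and 50% or more of the peak inside the window. With a 50 kb window, 10 members had a peak in every siControl library. Within naming series 1, with 1 library per group, each of 4 counts of 0 became 1: held by siJunb and not siControl, by siH1f0 and not siControl, by siH1f0 and not siJunb, and by siJunb and not siH1f0. In the members' windows, the upper 50% of each list gave 0 regions lost and 0 gained under siJunb, and both it and equal length gave 1 gained under siH1f0; the 25% rule gave 0 gained under siJunb. Covered length relative to the total under peaks in the list was higher without overlap for 1 member in siJunb against siControl, 1 in siH1f0 against siControl and 2 in siJunb against siH1f0, and lower for 0 in the last. For H3K9me3 the count lower at day 1 was 0 with the 5 kb window, the upper 50% and equal covered length, and equal covered length gave 1 higher. The labels say nothing of what a shared replicate number means. Over 15062 genes, deviations from group means in same-numbered libraries correlated at -0.0555, 0.215 and -0.0299 for siJunb and siH1f0 (replicates 1, 2 and 3). For replicates 1 and 2 they correlated at 0.16 and 0.203 for siJunb and siControl, and at -0.0705 and 0.185 for siH1f0 and siControl, so the numbers were not taken as pairs. The signs followed the naming series. Every pair of libraries from the same series correlated positively (0.00949 to 0.215), and every other pair negatively (-0.203 to -0.0274). The deviations of the 2 siControl libraries mirror each other, so these signs are not independent. With the replicate block, 2 regions were lost and 2 gained under siJunb and 5 gained under siH1f0. Covered length was higher in each pair for 4 members under siJunb and 10 under siH1f0. The siH1f0 lists of these pairs were also larger in total, 56.4 and 89.8 Mb against 15.6 and 63.3 Mb in siControl. The same count over all genes was not made, so the 10 cannot be read as a trait of the members. H3K9me3 was higher at day 1 for 3 members by number and 3 by naming series, where H1.0 was lower for 1. The cause of these shifts was not tested. Leaving out 1 library at a time moved 26 of 108 values. Under these other settings no share over all genes or regions was computed. Members with a peak in every library ranged from 6 to 7 (siJunb), 7 to 8 (siH1f0) and 6 to 9 (siControl), and siH1f0 gained 0 to 1. Regions lost and gained ranged from 1 to 5 and 1 to 10 under siJunb and from 0 to 3 and 0 to 5 under siH1f0. Members with non-overlapping covered length ranged from 0 to 5 higher and 0 to 1 lower (siJunb against siControl), 0 to 6 higher (siH1f0 against siControl), and 0 to 1 higher and 1 to 2 lower (siJunb against siH1f0). For marks at day 1 against the ground state they ranged from 0 to 7 higher and 0 to 7 lower (H1.0) and from 0 to 4 higher and 1 to 4 lower (H3K9me3).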
